A study of Homo sapiens with 6 samples.

Results

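Messenger RNA of 10 Notch pathway genes was examined in U87-2M1 glioma cells: the receptors NOTCH1, NOTCH2 and NOTCH3, the ligands JAG1, JAG2 and DLL1, the DNA-binding protein RBPJ, and the target genes HES1, HEY1 and HEY2. They were chosen by name, with earlier results of these data known. All 10 were found among the 19775 genes that had a probe set with 1 gene symbol on the array. Each was read by 2 to 6 probe sets, 28 in all, and the probe set with the highest mean over the 6 arrays stood for the gene. U87-2M1 is an invasive line grown from U87, an established human glioma line, after passage through a lung metastasis assay in animals, and both groups were passage 4 cells kept in hypoxia. One group had received a baculovirus, an insect virus that delivers genes to mammalian cells, carrying a control decoy, and the other a baculovirus carrying a decoy for miR-10b. A decoy is a transcript that is meant to bind a microRNA and hold it away from its targets. Each group had 3 arrays, all of 1 cell line. The labels do not state that the 3 were grown as separate cultures, so the p-values speak only of the spread among these arrays, part or all of which may be technical. Binding of miR-10b by the decoy was not measured, and untransduced cells were not analysed here. The comparison asks which Notch transcripts differ between the miR-10b decoy and the control decoy.

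Notch receptors sit in the cell membrane and are switched on by ligands of the Jagged and Delta families on a neighbouring cell. Ligand binding lets a metalloprotease and then gamma-secretase cut the receptor, and the freed intracellular part enters the nucleus, where it joins RBPJ on DNA. There it turns on genes such as HES1, HEY1 and HEY2, which are themselves transcriptional repressors. In the nervous system the pathway is known for keeping progenitor cells undifferentiated, and it has been studied in glioma for that reason.

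Promoter sequences are shown for HES1, the target gene that rose by every probe set above background, and beside it for HEY2, a target of the same class, and for JAG1, a ligand that moved the other way. The capitals mark the letters TGGGAA or their reverse complement TTCCCA, a core recognised by RBPJ. Sites without these letters were not searched for, so a window without the core may still hold an RBPJ site. Each window is the 250 bases before the gene's start, 5′ to 3′ on the gene's strand, from RefSeq (GRCh38.p14). HES1 lies at chr3:194135898-194136147 on the plus strand, HEY2 at chr6:125749382-125749631 on the plus strand and JAG1 at chr20:10674000-10674249 on the minus strand.
HES1: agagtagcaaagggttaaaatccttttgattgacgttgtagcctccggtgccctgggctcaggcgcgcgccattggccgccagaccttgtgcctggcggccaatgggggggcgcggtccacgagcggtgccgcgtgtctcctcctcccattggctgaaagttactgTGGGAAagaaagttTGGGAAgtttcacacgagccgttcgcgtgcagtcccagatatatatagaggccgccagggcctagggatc
HEY2: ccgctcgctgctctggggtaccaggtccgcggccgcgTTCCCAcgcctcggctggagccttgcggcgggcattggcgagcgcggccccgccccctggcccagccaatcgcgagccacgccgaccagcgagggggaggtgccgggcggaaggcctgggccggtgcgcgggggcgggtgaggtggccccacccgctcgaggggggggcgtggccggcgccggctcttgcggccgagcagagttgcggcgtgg
JAG1: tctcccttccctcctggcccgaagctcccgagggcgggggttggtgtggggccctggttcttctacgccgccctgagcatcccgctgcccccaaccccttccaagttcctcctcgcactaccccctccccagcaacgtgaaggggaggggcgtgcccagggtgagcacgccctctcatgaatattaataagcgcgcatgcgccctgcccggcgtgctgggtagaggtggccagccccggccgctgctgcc
The HES1 window held 2 copies on the gene's own strand, from base -84 to -79 and from base -70 to -65 counted from the start site. The HEY2 window held 1, on the opposite strand from base -213 to -208, and the JAG1 window held none. Over all 35116 promoter windows of the same length, 20.8% held at least 1 copy on either strand and 2.9% held 2 or more. Windows were found for 8 of the 10 genes, and 3 of these 8 (HES1, HEY2 and 1 of the RBPJ start sites) held the core. That RBPJ window also held 2 copies, from base -72 to -67 and, on the opposite strand, from base -115 to -110. The 3 of 8 counts genes with the core in any window, and RBPJ had several, whereas the 20.8% counts windows. The windows of NOTCH1, NOTCH2, NOTCH3, JAG1 and JAG2 held none. Whether the core bears on the differences below was not tested. The longer form CGTGGGAA, which contains the core, was in 0.72% of windows, HEY2 and RBPJ among them. Another longer form, TGTGGGAA, was in 1.43% of windows, and HES1 held it from base -86 to -79. A match of letters describes the sequence and does not show that RBPJ binds there.

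Signals below are the deposited MAS5 intensities after each array was brought to the same trimmed mean of 159.9. Control replicate 3, with a deposited trimmed mean of 192 against 155 to 163 on the other 5 arrays, was the array this changed most. Pearson's r over the tested genes was 0.985 to 0.988 for arrays within a group and 0.967 to 0.973 across groups. Of 13842 genes tested with limma, 2302 were higher with the miR-10b decoy (16.6%) and 2452 lower (17.7%), so that 34.3% passed in either direction, and the groups did not overlap in 47% of genes. Without rescaling, 1094 were higher and 2561 lower. As a measure of RNA integrity, the ratio of the actin probe set at the 3' end to that at the 5' end ran from 5.27 to 6.22 in controls and from 7.36 to 10.6 with the decoy, while that of GAPDH was 0.945 ± 0.0192 and 0.943 ± 0.00747 (SD, n = 3). The part of RNA integrity in the differences below was not tested. Of the 8 glial and glioma markers, summing to 17583 to 18022 in controls and 16796 to 17793 with the decoy, GFAP and S100B lay under the filter level of 15.1 on every array. VIM, CD44, SOX9 and SOX2 did not pass, NES was lower (log2 difference -0.36, adjusted p = 0.00999), and OLIG2 had signals of 0.826, 4.70 and 8.59 in controls and 18.4, 18.6 and 27.7 with the decoy and was not among the genes tested. The 8 endothelial markers summed to 257 to 334 in controls and 209 to 216 with the decoy, with 5 of 8 (VWF, CDH5, CLDN5, ESAM and EMCN) under that level on all arrays. PECAM1 and TEK were lower (-0.40, adjusted p = 0.0137, and -0.57, adjusted p = 0.0201), and KDR did not pass (-0.17, adjusted p = 0.736). The part of these 8 in the Notch results was not tested. The 6 leukocyte markers measured summed to 88.5 to 141 and 87.1 to 112, the 6 squamous markers to 45.9 to 106 and 42.6 to 62.3, and the 8 fibroblast and pericyte markers to 5232 to 5520 and 5351 to 5544. Within the last list, LUM and DCN were higher (0.80, adjusted p = 1.13e-04, and 0.79, adjusted p = 0.00324) and ACTA2 and COL1A1 lower (-0.54, adjusted p = 1.21e-04, and -0.20, adjusted p = 0.0234). Their part in the Notch results was not tested either.

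Of the 10 Notch genes, 9 were above the filter level in both groups. Of these 9, 4 were higher with the miR-10b decoy (HES1, NOTCH1, NOTCH2 and RBPJ), 2 were lower (JAG1 and NOTCH3), and 3 did not pass (JAG2, HEY1 and HEY2). Over all genes tested, 16.6% were higher and 17.7% lower. HES1 had the largest log2 difference of the 9. The RBPJ call was lost in several settings, and its direction depended on the probe set. With the mean of its probe sets RBPJ was lower (-0.27, adjusted p = 0.0482). The tenth, DLL1, was above the filter level with the decoy alone, so its higher call followed from its entry into the test and is not counted here. The arrays of the groups did not overlap for 7 of the 9, against 47% of all genes. The median log2 difference of the 9 was that of RBPJ, 0.23, beside -0.04 over all genes tested. It thus rested on a gene whose direction depended on the probe set. The 10 were picked with earlier results of these data known, so these comparisons with all genes lend no weight to a Notch response. The receptors held genes on both sides. In bulk RNA, fewer cells with a transcript and less of it per cell cannot be told apart. With per-gene variances and no moderation, where 20.8% of all genes passed, 3 remained higher (HES1, NOTCH1 and NOTCH2) and 1 lower (JAG1).

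**Figure D1:**
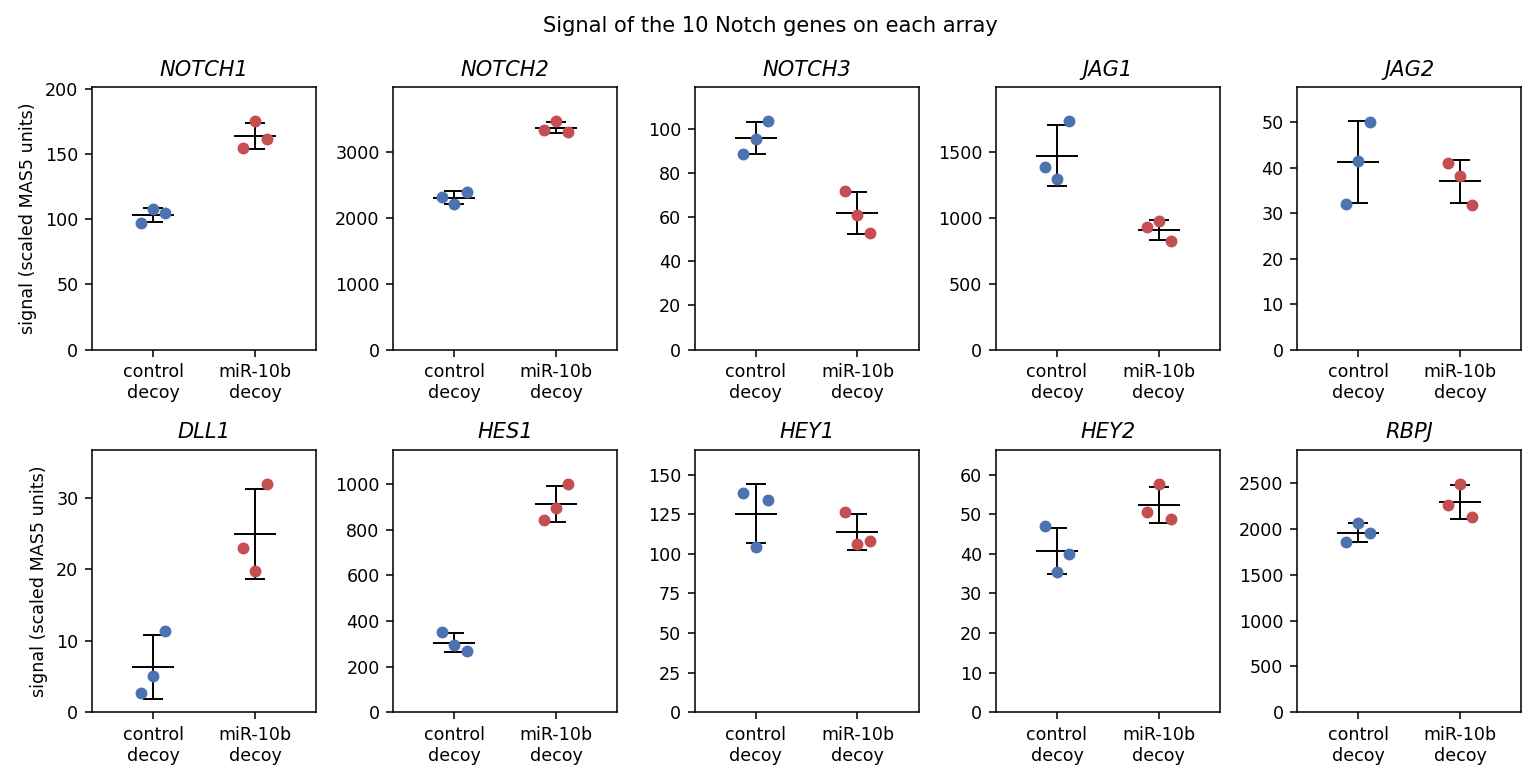
Signal of each Notch gene (vertical axis, scaled MAS5 units, starting at 0) on the 3 control decoy arrays (blue) and the 3 miR-10b decoy arrays (red), with the group mean as a bar and the SD as whiskers. HES1 rose from 305 to 913 on average, JAG1 fell from 1475 to 910.1, and the JAG2 and HEY1 arrays overlapped between groups.

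The receptors moved in different directions. NOTCH1, the best-studied receptor of the family, had signals of 97.2, 108 and 105 in control replicates 1 to 3 and 155, 175 and 161 in miR-10b decoy replicates 1 to 3. All 3 decoy arrays lay above all controls. The means were 103 ± 5.54 and 164 ± 10.2 (SD, n = 3), a log2 difference of 0.63 (SE 0.11, adjusted p = 9.06e-04). NOTCH1 has another probe set, which lay between 2.08 and 6.43 on every array and so could not show a change. Averaged with it, NOTCH1 no longer passed (log2 difference 0.27, adjusted p = 0.234).

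NOTCH2, a close relative of NOTCH1, had 2308, 2201 and 2395 in controls and 3329, 3457 and 3303 with the decoy. The groups were well apart, and the decoy mean was 1.46 times the control mean (2301 ± 97.3 against 3363 ± 82.7, SD, n = 3; log2 difference 0.55, SE 0.05, adjusted p = 1.12e-05). The probe set that stood for NOTCH2 carries a suffix (x_at) that marks possible cross-hybridisation, and NOTCH2 has near-identical partial copies in the genome, so its size is uncertain. The other 3 NOTCH2 probe sets, without that suffix, were also higher, at log2 differences of 0.39, 0.32 and 0.47 (adjusted p = 2.08e-04, 0.0425 and 0.038 over all 28764 probe sets tested, of which 24.9% passed). NOTCH2 was thus higher by each of its 4 probe sets, but whether the other 3 also read the partial copies was not tested.

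NOTCH3, known in tumours and in vascular smooth muscle, went the other way. Its signals were 88.6, 95.3 and 103 in controls and 71.7, 60.8 and 52.6 with the decoy. The highest decoy array lay below the lowest control, and the means were 95.7 ± 7.33 and 61.7 ± 9.59 (SD, n = 3; log2 difference -0.59, SE 0.15, adjusted p = 0.0098). The NOTCH3 call ended with the mean of both probe sets (-0.58, adjusted p = 0.0927) and without moderation (-0.59, adjusted p = 0.0509), with hardly any change in size. The dimmer NOTCH3 probe set read 33.7 on control replicate 1 and between 5.48 and 8.71 on the other 5 arrays.

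JAG1, a ligand of the Jagged family, was lower with the miR-10b decoy. Its signals were 1393, 1296 and 1735 in controls and 930.1, 977 and 823 with the decoy, and the groups did not overlap. Control replicate 3 was the highest array, although it had been scaled down by a factor of 0.831. The control mean was 1.62 times the decoy mean (1475 ± 231 against 910.1 ± 79.1, SD, n = 3; log2 difference -0.68, SE 0.10, adjusted p = 2.89e-04). The JAG1 probe set used also carries the x_at suffix. Of its 5 other probe sets, 3 were above background, and all 3 were lower too, at log2 differences of -0.83, -1.17 and -0.57 (adjusted p over all probe sets 2.94e-05, 3.79e-05 and 0.0235). The steepest of them read 184, 179 and 195 in controls and 76.8, 88.0 and 71.8 with the decoy. The size of the JAG1 difference therefore varied among probe sets while its direction did not.

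JAG2, the other Jagged ligand, showed no difference that passed. It had 32.1, 41.5 and 50.1 in controls and 41.1, 38.2 and 31.9 with the decoy, so the groups overlapped (log2 difference -0.12, SE 0.22, adjusted p = 0.707). The sign turned without control replicate 3 (0.01, adjusted p = 0.979), and the second JAG2 probe set had 0.73 (adjusted p = 0.279).

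DLL1, a Delta ligand, was dim. Its signals were 2.70, 5.02 and 11.4 in controls, all under the filter level, and 23.0, 19.8 and 31.9 with the decoy, all above it. The filter level of 15.1 is a percentile of mean signals and not a detection limit, so it sets no bound on a change. The decoy mean was 1.65 times that level (fitted log2 difference 1.29, SE 0.38, adjusted p = 0.0203). DLL1 passed the filter only through the decoy group, where it is high, so this p gives no support to a difference. DLL1 has 1 other probe set, which was under the filter level on every array and ran the opposite way, at 6.84, 12.5 and 4.53 in controls and 2.48, 0.966 and 1.19 with the decoy. The p also missed the threshold when control replicate 1, or else miR-10b decoy replicate 1 or 3, was omitted (adjusted p of 0.054, 0.0549 and 0.095 in that order), without moderation (adjusted p = 0.0613), and when both probe sets were averaged (adjusted p = 0.392).

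RBPJ, through which all receptors act on DNA, gave a different answer by probe set. The brightest had 1853, 2064 and 1958 in controls and 2262, 2489 and 2127 with the decoy, a log2 difference of 0.23 (SE 0.07, adjusted p = 0.0208). These groups did not overlap, but the step from the highest control to the lowest decoy array was small. The next RBPJ probe set had 1262, 1481 and 1395 in controls and 1198, 1275 and 1237 with the decoy, with a log2 difference of -0.15 (adjusted p = 0.126 over all probe sets). The dimmest fell from 42.3, 62.8 and 42.3 to 23.5, 23.6 and 22.7, with a log2 difference of -0.87 (adjusted p = 0.0112 over all probe sets). With the mean of its 3 probe sets RBPJ was therefore lower (log2 difference -0.27, adjusted p = 0.0482). The brightest carries the x_at suffix, and RBPJ has processed pseudogenes with which such probes may share sequence. The upward RBPJ call was also lost on the deposited scale (0.12, adjusted p = 0.539), with eBayes run without a trend (adjusted p = 0.106) and without moderation (adjusted p = 0.129). Omitting control replicate 1 or miR-10b decoy replicate 2 gave adjusted p of 0.0755 and 0.0999.

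HES1, a basic helix-loop-helix repressor, had the largest log2 difference among the 9 Notch genes measured above the filter level in both groups. It had signals of 350.1, 294 and 269.8 in controls and 843, 896 and 999 with the miR-10b decoy. Every decoy array was far above every control array. The decoy mean was 2.99 times the control mean (305 ± 41.2 against 913 ± 79.6, SD, n = 3), a log2 difference of 1.57 (SE 0.10, adjusted p = 7.77e-07). A second HES1 probe set read 207, 136 and 129 in controls and 371, 339 and 371 with the decoy, a log2 difference of 1.19 (adjusted p = 1.83e-04 over all probe sets). The third HES1 probe set stayed between 1.12 and 2.20 on 5 arrays and read 21.8 on miR-10b decoy replicate 1. The HES1 call held in every alternative tried, with log2 differences from 1.12 to 1.67 and adjusted p of at most 0.00945.

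The other 2 target genes did not follow HES1 past the threshold. HEY1 had 138, 104 and 134 in controls and 127, 106 and 108 with the decoy. Its groups overlapped, with means of 125 ± 18.6 and 114 ± 11.3 (SD, n = 3; log2 difference -0.13, SE 0.14, adjusted p = 0.498), and its other probe set gave -0.18 (adjusted p = 0.473 over all probe sets). HEY2 had 46.9, 35.4 and 39.9 in controls and 50.6, 57.6 and 48.8 with the decoy. Those HEY2 arrays did not overlap between groups, but the difference did not pass (log2 difference 0.32, SE 0.18, adjusted p = 0.209). The second HEY2 probe set was near background, at 1.83, 1.77 and 3.53 in controls and 11.4, 11.8 and 28.9 with the decoy, and with the mean of both HEY2 passed (log2 difference 0.81, adjusted p = 0.0111). Whether HES1 and the HEY genes differ from each other in response was not tested.

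**Figure D2:**
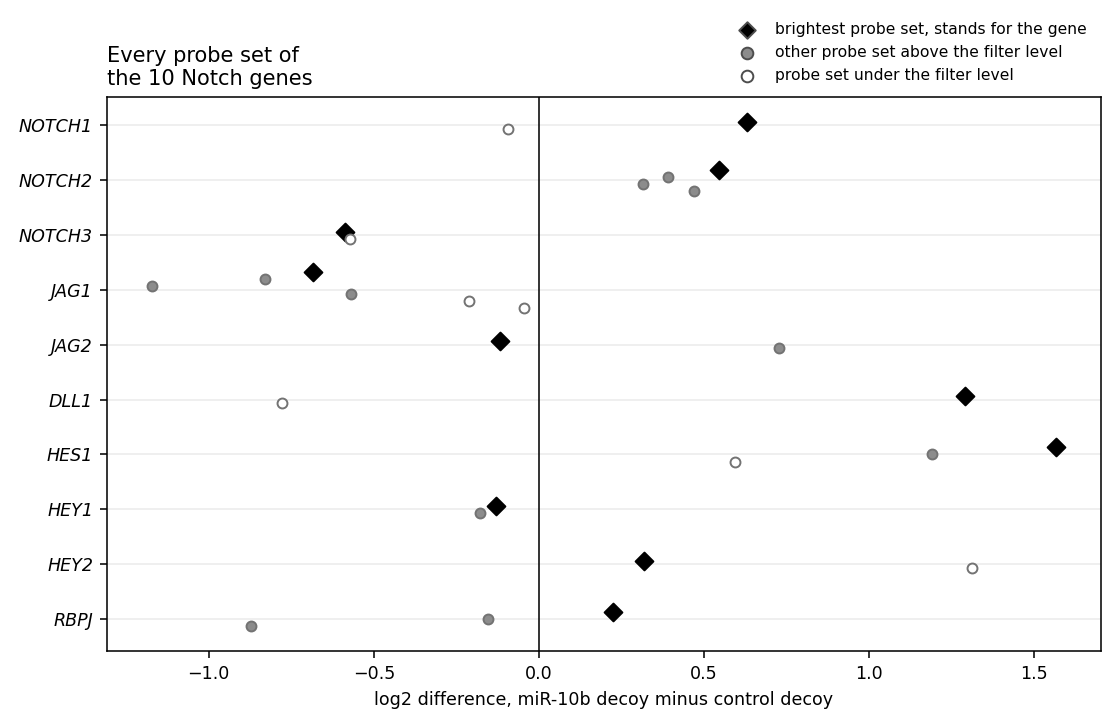
Log2 difference (horizontal axis, miR-10b decoy minus control decoy) of each of the 28 probe sets of the 10 genes. Diamonds stand for the gene, filled circles are other probe sets above the filter level of 15.1 and open circles lie under it; all filled points of NOTCH2, JAG1 and HES1 lie on 1 side of 0, and those of RBPJ and JAG2 on both.

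Of the 28 probe sets, 22 were bright enough to be tested one by one, and 9 of these were higher (that of DLL1 among them) and 6 lower. Over all 28764 probe sets tested, 24.9% passed in either direction. NOTCH2 and JAG1 gave 4 of the passing probe sets each, and probe sets of 1 gene are not separate results. NOTCH2, JAG1 and HES1 each had more than 1 probe set that passed, all in the direction given above. RBPJ had 2 that passed in opposite directions.

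**Figure D3:**
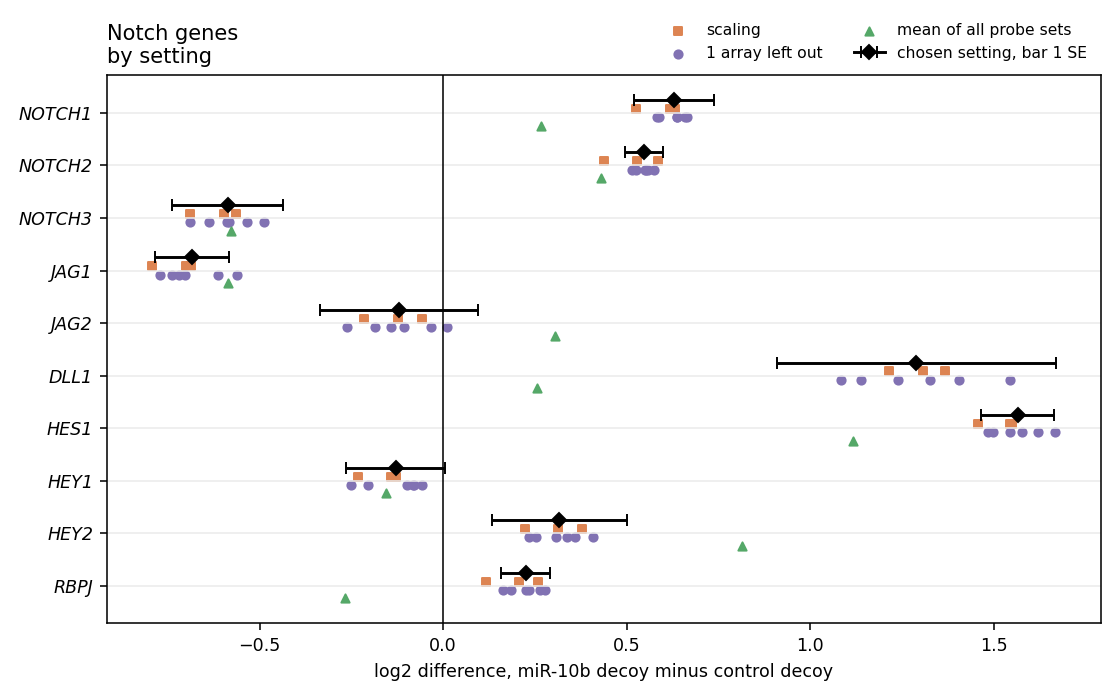
Log2 difference (horizontal axis) of each Notch gene in the chosen setting (black, bar 1 SE), under 3 other scalings (squares), with 1 array left out (circles) and with the mean of all probe sets (triangles). HES1, NOTCH1, NOTCH2, NOTCH3 and JAG1 keep their side of 0 throughout, whereas the triangle of RBPJ, at -0.27, lies opposite its other points.

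Beyond these 10, a further 70 genes of the pathway were grouped by role, and 58 of the 66 with a usable probe set were bright enough to test. Of the 58, 15 rose with the miR-10b decoy and 12 fell, which is 25.9% and 20.7% beside 16.6% and 17.7% of all genes, and their median log2 difference was -0.04, as over all genes. Without rescaling 9 were higher and 12 lower, and with the mean of all probe sets 6 and 4. The lists too were chosen with earlier results of these data known, so their shares lend no weight to a Notch response either.

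Among other receptors and ligands, 1 of 5 tested was higher and 2 were lower. MFAP2, a microfibril protein reported to bind Notch ligands, had 348, 369.8 and 383 in controls and 488, 487 and 541 with the decoy (log2 difference 0.45, adjusted p = 8.61e-04). DNER, a neuronal Notch ligand, was lower, with 4193, 4198 and 3698 in controls and 3028, 3236 and 3463 with the decoy (-0.31, adjusted p = 0.00283). DLK2, a relative of the Delta ligands, had -1.08 (adjusted p = 0.0396), with 1 decoy array at 5.58. That DLK2 call was lost when control replicate 1, 2 or 3 was omitted (adjusted p of 0.113, 0.0632 and 0.0853 in that order) or miR-10b decoy replicate 3 (0.0868). NOTCH4 did not pass (-0.20, adjusted p = 0.442). The endothelial ligand DLL4 was too dim to test, at 15.6, 11.3 and 11.9 in controls and 5.38, 2.86 and 13.6 with the decoy.

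The proteases that cut the receptor split as well, with 2 of 8 higher and 3 lower. ADAM10, a metalloprotease that makes the ligand-dependent cut, fell from 2153, 2018 and 2126 to 1574, 1501 and 1567 (log2 difference -0.44, SE 0.05, adjusted p = 8.42e-05). Its relative ADAM17 rose from 413, 423 and 445 to 581, 607 and 654 (0.52, SE 0.07, adjusted p = 2.53e-04). Neither ADAM10 nor ADAM17 had overlapping groups. In gamma-secretase, the catalytic subunit PSEN2 was higher at 0.43 (adjusted p = 0.00317), and the subunits NCSTN and APH1A were lower at -0.34 (adjusted p = 0.0157) and -0.30 (adjusted p = 0.0193). Omitting control replicate 1 or miR-10b decoy replicate 2 took NCSTN to adjusted p of 0.0684 and 0.0716, and omitting control replicate 2 or miR-10b decoy replicate 1 took APH1A to 0.0606 and 0.0642. ADAM10 had 2 further probe sets, both lower (-0.65 and -0.88), whereas the 2 further ones of ADAM17 gave 0.08 and 0.04, and with all 3 averaged ADAM17 did not pass (0.21, adjusted p = 0.0957). The 2 other PSEN2 probe sets gave 0.10 and -0.0081, and PSEN2 did not pass with all 3 averaged (0.17, adjusted p = 0.337) or on the deposited scale (0.32, adjusted p = 0.0846).

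LFNG, the lunatic fringe enzyme that adds sugars to Notch receptors and so alters which ligands they answer to, was the 1 gene of 5 glycosylation enzymes that passed, and it was higher. It had 25.8, 27.6 and 25.8 in controls and 92.8, 83.8 and 67.4 with the decoy, so the groups were well apart (decoy mean 3.08 times the control mean, log2 difference 1.39, SE 0.18, adjusted p = 1.37e-04). The second LFNG probe set, under the filter level, gave -1.07, and with the mean of both the call ended (adjusted p = 0.574).

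Among 13 ubiquitin ligases and trafficking proteins, 3 were higher and 2 lower. FBXW7, which marks the freed Notch fragment for destruction, fell from 266, 259.9 and 220.5 to 156, 144 and 169 (log2 difference -0.64, SE 0.11, adjusted p = 6.44e-04). MIB2, a ligase acting on ligands, was lower at -0.74 (adjusted p = 9.63e-04), though 1 of its other probe sets was higher at 0.53 (adjusted p = 0.0457 over all probe sets), and the average did not pass (-0.18, adjusted p = 0.397). NEDD4, a ubiquitin ligase, and the Deltex protein DTX2 were higher at 0.45 (adjusted p = 6.65e-04) and 0.74 (adjusted p = 0.00585). MIB1, the main ligase for ligand uptake, had 0.26 (adjusted p = 0.0378), but its 3 other probe sets ran the opposite way. Omitting control replicate 1 or 3 took MIB1 to adjusted p of 0.0775 and 0.132, and omitting miR-10b decoy replicate 1 or 2 to 0.119 and 0.123. After quantile normalization it was 0.0731.

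Cofactors of RBPJ and of the HES proteins held 6 higher and 4 lower genes of 17. TLE3, a Groucho corepressor that works with HES proteins, rose from 81.8, 66.9 and 61.5 to 172, 147 and 224 (log2 difference 1.28, SE 0.16, adjusted p = 9.67e-05), and its 3 other probe sets were positive at 0.25 to 0.43 without passing. TLE1, of the same family, rose from 1255, 1348 and 1348 to 2036, 1958 and 2158 (0.64, SE 0.06, adjusted p = 1.04e-05). With its 5 probe sets averaged TLE1 did not pass (0.27, adjusted p = 0.114). The acetyltransferase CREBBP and the corepressor SPEN were higher at 0.53 (adjusted p = 5.31e-04) and 0.34 (adjusted p = 0.00278), and the deacetylase HDAC1 was lower at -0.25 (adjusted p = 0.00321). CREBBP and SPEN did not pass with their probe sets averaged (0.35, adjusted p = 0.116, and 0.035, adjusted p = 0.882), and 2 of the 3 other SPEN probe sets were negative (-0.064 and -0.30). On the deposited scale SPEN did not pass either (0.23, adjusted p = 0.205).

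In other HES genes and reported targets, 2 of 10 were higher and 1 lower. MYC, reported as a Notch target in leukaemia, rose from 379, 318 and 341 to 456, 481 and 546 (log2 difference 0.51, SE 0.09, adjusted p = 0.00128). HES2 had 0.53 (adjusted p = 0.044), a call that was lost on omitting any 1 array other than control replicate 2 (adjusted p of 0.0741 to 0.13). The cyclin CCND3 was lower at -0.25 (adjusted p = 0.0228), which was lost on omitting control replicate 1 or 2 (adjusted p of 0.0609 and 0.0863) or miR-10b decoy replicate 3 (0.0703). NRARP, a feedback inhibitor of Notch, did not pass (-0.53, adjusted p = 0.145), but passed as lower without control replicate 1 (-0.81, adjusted p = 0.0258). HES5, a target used by neural progenitors, was under the filter level on every array, at 7.04, 4.74 and 9.90 in controls and 0.898, 1.67 and 1.66 with the decoy. HEYL was also too dim to test, at 3.86, 15.5 and 18.2 and at 12.3, 10.8 and 24.5.

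**Figure D4:**
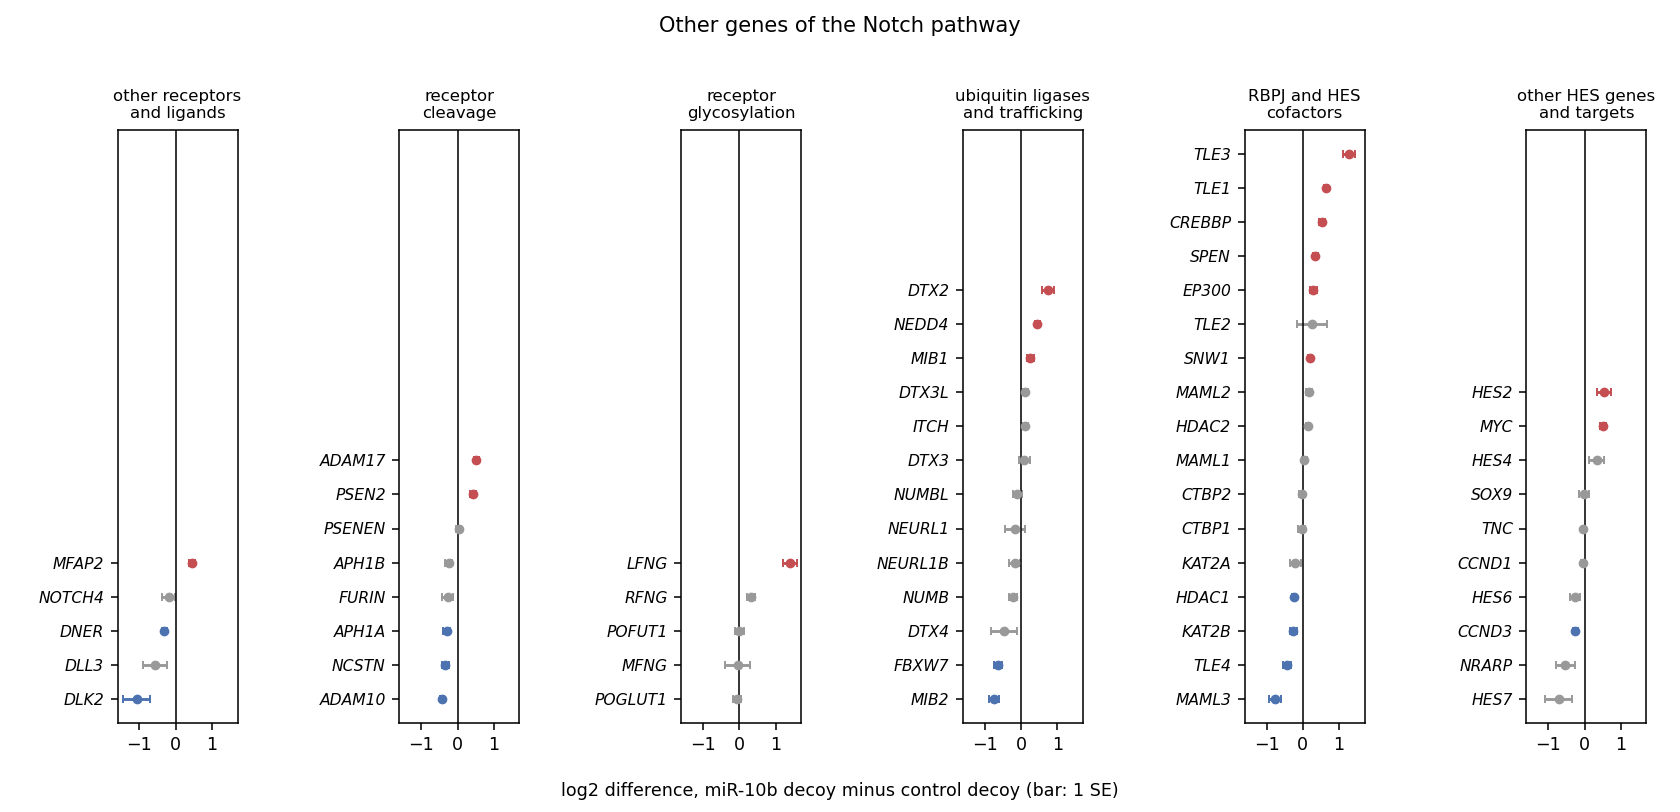
Log2 difference (horizontal axis, miR-10b decoy minus control decoy, bar 1 SE) of the 58 tested genes of the 6 lists, ordered within each list. Red marks genes that were higher, blue lower and grey those that did not pass; TLE3 at 1.28 and LFNG at 1.39 stand farthest right.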

How the data were processed

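The values the authors deposited are linear signal intensities of 54675 probe sets, made with MAS5 per the submitters' processing notes, with version and scaling target not given in the sources used here. The 3 miR-10b decoy and 3 control decoy arrays were grouped by their titles. The platform annotation gave 1 gene symbol to 41097 probe sets, several to 1801 and none to 11777; 62 control probe sets were left out. Names were checked against RefSeq (GRCh38.p14) by Entrez identifier, 41037 of 41091 matching.

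Here each array was scaled to the median over arrays of the 2% trimmed mean (trimmed on both ends), and log2(signal + 7) was taken, which understates changes of dim genes. A filter at the 30th percentile of mean signal (15.1) left 13842 genes. Differences come from limma (version 3.58.1, R 4.3.3) with lmFit and eBayes with an intensity trend (prior 7.97 against 4 residual degrees of freedom), two-sided, Benjamini-Hochberg adjusted over all genes, threshold 0.05. Probe sets were also fitted one by one. The number of arrays limits the precision. The code was tested on simulated data.

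All 10 genes are named whatever their values; of the 6 other lists, up to 5 genes past the threshold by smallest p, and NOTCH4, DLL4, HES5, HEYL and NRARP. Members and lists were chosen with earlier results of these data known. The alternatives were 3 other scalings, 2 offsets, 2 filters, the mean of probe sets, no trend, no moderation, a replicate block, each array left out, and quantile normalization without control replicate 3.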

Additional observations from a re-analysis of the deposited data

How the results depend on the processing

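Of 187 values of the 10 genes under the alternatives, 169 kept their direction and their side of the threshold. For the other pathway genes named this held for 424 of 515. The filter, trend, moderation and block alternatives cannot change a log2 difference, so only the adjusted p could move there. The 187 also include the chosen probe sets fitted again among all probe sets. The cause of the changes was not tested. JAG2 turned positive with the mean of its probe sets (0.30) and with quantile normalization without control replicate 3 (0.078), and ranged from -0.26 to 0.011 when 1 array was left out. When all probe sets were averaged, RBPJ turned to -0.27 and MIB1 to -0.065. Counting DLL1, the 5 Notch genes that were higher became 3 with probe sets averaged and 3 without moderation, and ranged from 3 (without control replicate 1) to 5 when 1 array was left out. The 2 lower became 1 without moderation. Of the other pathway genes, the 15 higher became 9 without rescaling and 6 with probe sets averaged, and the 12 lower became 4 with that average, 6 without the intensity trend and 5 without moderation. Averaging also ended the calls of NCSTN (-0.46, adjusted p = 0.0725), CCND3 (-0.36, adjusted p = 0.316), APH1A (-0.24, adjusted p = 0.187) and HES2 (0.15, adjusted p = 0.655), of which NCSTN and CCND3 grew in size. DLK2 and KAT2B, with 1 probe set each, kept their differences there and missed the threshold (adjusted p = 0.0679 and 0.0658). Over all genes the 2302 higher became 1094 without rescaling, 1397 with probe sets averaged and 1466 without moderation, and the 2452 lower became 1420 without moderation. Whether same-numbered samples were handled as pairs is not stated in the labels. Deviations of same-numbered arrays correlated at 0.03, -0.03 and -0.02, which shows no shared replicate effect but cannot settle the handling. With the replicate block 2290 genes were higher and 2427 lower, with the same calls among the 10 Notch genes, 5 higher and 2 lower. A filter at the 50th percentile left JAG2, DLL1 and HEY2 untested. Signals near the filter level of 15.1 limit what can be said of DLL1, HES5, HEYL and DLL4.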

Other observations

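Of the cofactor list, 5 further genes passed and were named after their values were seen. The coactivator MAML3 was lower, with signals of 62.2, 62.8 and 62.8 in controls and 32.2, 30.8 and 39.2 with the miR-10b decoy (log2 difference -0.77, adjusted p = 0.0056), and missed the threshold when its probe sets were averaged (-0.56, adjusted p = 0.0603). TLE4, of the same Groucho family as TLE1 and TLE3, was lower at -0.44 (adjusted p = 0.00656), and likewise missed it when averaged (-0.28, adjusted p = 0.196). The other 3 were near the threshold. The acetyltransferase KAT2B had -0.27 (adjusted p = 0.0469), which was lost on omitting control replicate 2 or 3 (adjusted p of 0.15 and 0.102) or miR-10b decoy replicate 1 or 2 (0.165 and 0.0663). EP300 had 0.28 (adjusted p = 0.0452), lost on omitting control replicate 2 or 3 (0.155 and 0.147) or miR-10b decoy replicate 1 or 3 (0.123 and 0.115), and after quantile normalization (0.0661). SNW1 had 0.19 (adjusted p = 0.0235), lost on the deposited scale (0.08, adjusted p = 0.679) and on omitting control replicate 3 (0.078) or miR-10b decoy replicate 3 (0.0671).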
